A study of Mus musculus with 35 samples.

Results

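The miR-183 cluster consists of miR-183, miR-96 and miR-182, and all 3 have an assay on the array of 376 mouse miRNAs that was used to follow the liver after a single dose of N-ethyl-N-nitrosourea (ENU). The members, mmu-miR-96, mmu-miR-182 and mmu-miR-183, were taken by their names. The cluster was chosen by the level of miR-96 at post-treatment day (PTD) 30, which was higher than in the controls. The values of PTD 30 against the control group are therefore given as a description for all 3 members, without a p, and nothing is read from the calls there. The mice of the other PTDs did not enter the choice, but the 7 controls did, and they are also the reference for the tests at those PTDs, which are therefore not independent of it. ENU is an alkylating agent that adds ethyl groups to DNA bases without metabolic activation.

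Livers came from 35 female Big Blue transgenic mice, aged 6 months at treatment, with 1 array per mouse. Big Blue mice carry a bacteriophage shuttle vector that serves as a mutation reporter, and ENU and control mice carried it alike. The ENU mice received 120 mg/kg by intraperitoneal injection and were killed at PTDs 1, 3, 7 and 15 (n = 5 each) and at PTDs 30 and 120 (n = 4 each). The control group was made up of 7 mice given the vehicle, dimethylsulfoxide (DMSO). By their labels, 3 of them were killed at day 1 and 4 at day 30, whereas the methods of the study give 4 and 3, so the day of a control is used here only as its label. No control was labelled with day 3, 7, 15 or 120.

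The 3 miRNAs are cut from 1 primary transcript and are known for their high levels in sensory cells of the ear, the eye and other sense organs, where changes in the seed of miR-96 cause hearing loss. A miRNA selects its target mRNAs mainly by pairing of the seed, the bases 2 to 8 from its 5′ end. In several tumours the members of the cluster are abundant, and the mRNA of the transcription factor Foxo1 is among their known targets. In adult liver the cluster is a minor component beside the hepatocyte miRNA miR-122.

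The mature sequences, taken from RefSeq on the GRCm38.p6 assembly, are shown since the members differ by single bases in the seed, which stands in capitals. The primer sequences of the assays are not given in the sources used here, so the products of the assays could not be checked against them.
miR-96: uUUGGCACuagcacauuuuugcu
miR-182: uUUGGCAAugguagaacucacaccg
miR-183: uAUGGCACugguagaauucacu
Counted from the 5′ end, the seed of miR-182 differs from that of miR-96 by C8A, and the seed of miR-183 differs from that of miR-96 by U2A. Both U2A and A8C separate the seed of miR-183 from that of miR-182. Beyond the seed, miR-182 and miR-183 are the more alike pair. Aligned from base 1 without gaps, they are identical at 18 of 22 positions, miR-96 and miR-183 at 13 of 22, and miR-96 and miR-182 at 12 of 23. None of the other assays that could be matched to a RefSeq sequence (289 assays matched in all) shares the seed of a member.

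The genes lie on the minus strand of chromosome 6, within the lncRNA gene Mirc35hg. From low to high coordinates, Mir182 lies at chr6:30165918-30165992, Mir96 at chr6:30169446-30169551 and Mir183 at chr6:30169668-30169737, so the cluster spans 3820 bp. Mir96 and Mir183 are 116 bp apart, and Mir182 is separated from Mir96 by 3453 bp. The nearest protein-coding genes are Nrf1, at a distance of 12460 bp, and Ube2h, at 41552 bp.

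The array gives for each well a threshold cycle (Ct), the PCR cycle at which the fluorescence crosses a fixed threshold, so 1 cycle less stands for a doubling of the product. Levels are given as -ΔCt, for which the Ct of the miRNA is taken from the mean of 4 reference RNAs on its array, U6, snoRNA142, snoRNA202 and snoRNA251. The scale is log2 and a value closer to 0 means more miRNA. All 3 members had a Ct on every array, from 24.6 to 27.9 for miR-96, from 25.9 to 28.9 for miR-182 and from 25.9 to 29.0 for miR-183. Ordered by mean Ct in the controls, the assays of miR-96, miR-183 and miR-182 ranked 124, 146 and 150 of 376, and miR-122 had the lowest mean Ct of all assays, 14.5, which is known of liver. A difference between the Ct of 2 assays also holds the difference in their efficiency and is no ratio of copies.

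According to the run records in the files, the arrays were run in 3 separate periods. Run period 1 held the 3 controls labelled day 1, 4 of the 5 mice of PTD 1 and all mice of PTDs 3, 7 and 15. Run period 2 held 2 of the controls labelled day 30, the other mouse of PTD 1 and all mice of PTDs 30 and 120. The other 2 controls labelled day 30 made up run period 3. By group mean, the reference RNAs came earliest in the controls labelled day 1, at a Ct of 21.1 to 21.4 over the arrays, against 21.0 to 22.1 at PTD 1, 21.7 to 22.3 in the controls labelled day 30, 21.4 to 22.7 at PTD 7 and 22.1 to 23.5 at PTD 15. This shift enters every -ΔCt below, and its part in the results was not tested.

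In the controls, all 3 members were lower in the mice labelled day 1 than in those labelled day 30. The -ΔCt of miR-96 was -5.94, -5.83 and -6.60 in the controls labelled day 1 and -4.81, -3.66, -5.40 and -4.30 in those labelled day 30. For miR-182 the values were -6.87, -6.24 and -7.67 against -6.23, -4.76, -5.68 and -4.62. For miR-183 they were -6.92, -5.88 and -7.28 against -5.88, -4.79, -5.59 and -4.74. The labels did not overlap for any member, although for miR-182 and miR-183 the closest mice of the 2 labels were nearly equal. The log2 difference, day 30 minus day 1, was 1.58 ± 0.45 (SE) for miR-96, 1.60 ± 0.51 for miR-182 and 1.44 ± 0.45 for miR-183, with adjusted p of 0.0292, 0.0417 and 0.0389 in limma (Benjamini-Hochberg over all 376 assays). In exact permutation tests p was 0.0571 for each member, and the smallest p that 3 mice against 4 allow is 0.0286. The controls also entered the choice of the cluster, so these tests are not independent of it. Only miR-96 met the rule for a differentially expressed miRNA (DEM), a limma p under 0.01 and a fold change above 2. The rule called 28.5% of all assays in this comparison, each of them higher at day 30, and the median log2 difference of all assays was 1.00. Without DMSO day 1 replicate 1, 2 or 3 or DMSO day 30 replicate 1, 2 or 4, miR-96 no longer met the rule, with log2 differences from 1.28 to 1.73. Without DMSO day 30 replicate 1, miR-182 and miR-183 met it, at 1.90 and 1.65, and without DMSO day 1 replicate 2 miR-183 did, at 1.85. With the median Ct as the scale the labels overlapped for each member, the log2 differences were 0.67, 0.70 and 0.54, and no member was called, beside 5.05% of all assays. Run period and day label cannot be told apart in the controls, since no period held both labels.

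At PTD 30, from which the cluster was picked, miR-96 reached -4.22, -2.76, -2.67 and -4.24. The values of miR-182 were -5.45, -4.01, -4.17 and -5.13, and those of miR-183 were -4.92, -4.01, -3.68 and -5.03. The same 2 mice, replicates 2 and 3, were the highest for every member, above all 7 controls, while the other 2 mice lay within the range of the controls. Against the control means of -5.22 ± 1.02 (SD, n = 7), -6.01 ± 1.09 and -5.87 ± 0.97, the log2 fold changes of miR-96, miR-182 and miR-183 were 1.75 ± 0.56 (SE), 1.32 ± 0.56 and 1.46 ± 0.52. These correspond to fold changes of 3.36, 2.50 and 2.75, and the median log2 fold change of all assays was 0.54. In whole liver, a change in the number of cells that hold a miRNA and a change in its amount per cell cannot be told apart. The rule for DEMs counted 1 of the 3 members, miR-96, beside 1.6% of all assays, but these are the values that chose the cluster, so this count and those below for PTD 30 are no test. By the log2 fold change, miR-96 ranked 6, miR-183 ranked 12 and miR-182 ranked 19 of 376 from the highest. The count fell to 0 without any single one of the 3 controls labelled day 1, DMSO day 30 replicates 1 and 3, and ENU day 30 replicates 2 and 3, and rose to 2, with miR-183, without DMSO day 30 replicate 2 or 4. Over these the log2 fold change of miR-96 lay between 1.48 and 2.01. Against the 2 controls of run period 2 alone, the log2 differences were 0.76 ± 0.59 (SE), 0.81 ± 0.57 and 0.93 ± 0.52, and no member was called, beside 0.798% of all assays. Against the 3 controls labelled day 1 alone the count was 3, again as a description, beside 37.5% of all assays.

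**Figure D1:**
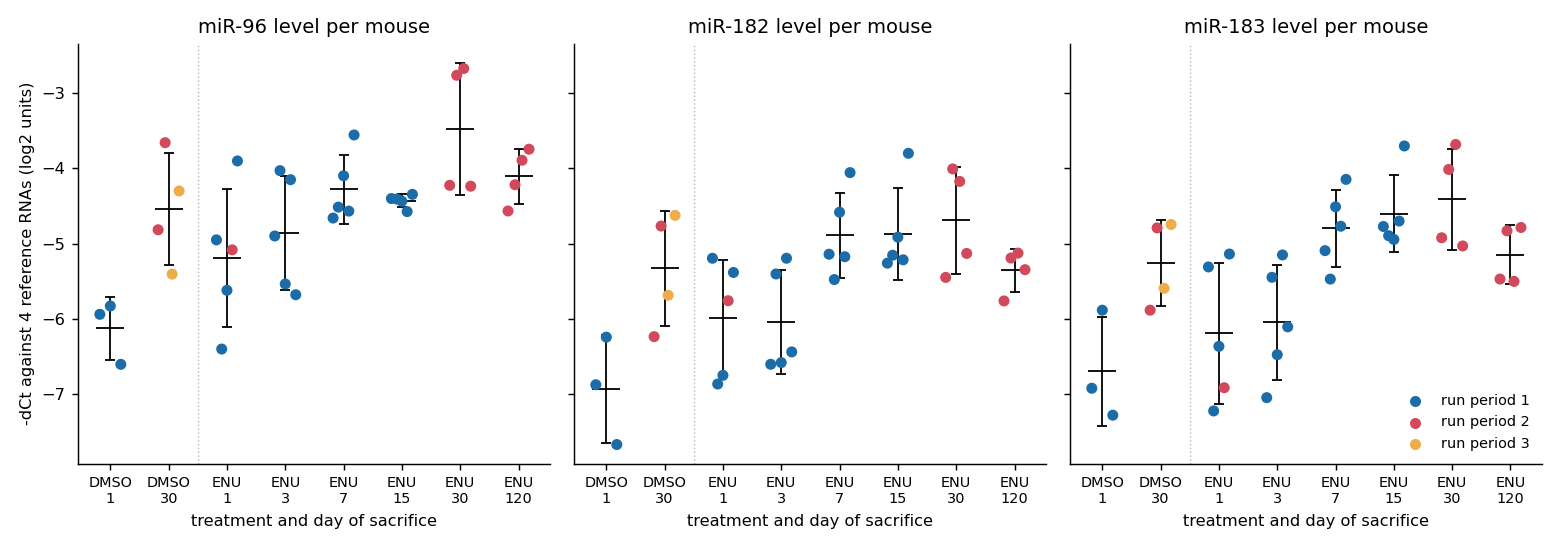
The -ΔCt (log2 units, 1 point per mouse) of miR-96, miR-182 and miR-183 by treatment and day of sacrifice, coloured by run period, with the mean (long dash) and SD (bars) of each of the 8 groups. The controls labelled day 1 have the lowest mean of the 8 groups, and the mice of PTD 7 and PTD 15 all lie above the mean of the 7 controls.

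Before normalization, the members and the reference RNAs differed in opposite directions between PTDs 7 and 15 and the controls labelled day 1. In the controls labelled day 1 the Ct was 27.0 to 27.9 for miR-96, 27.6 to 28.9 for miR-182 and 27.2 to 28.6 for miR-183. At PTD 7 it was 25.9 to 27.0, 26.8 to 27.6 and 26.9 to 27.4. At PTD 15 it was 26.6 to 27.9, 27.3 to 27.6 and 26.8 to 27.3. The mean Ct was thus lower at PTDs 7 and 15 for each member, while that of the reference RNAs was higher, 22.3 ± 0.50 (SD, n = 5) at PTD 7 and 22.5 ± 0.59 at PTD 15 against 21.2 ± 0.14 (SD, n = 3) in the controls labelled day 1. The Ct ranges overlapped with those controls for miR-96 at PTD 15, for miR-182 at PTD 7, by a margin near 0, and for miR-183 at both days. Against the controls labelled day 30 the picture was mixed. Their mean Ct was 26.7 ± 0.77 (SD, n = 4) for miR-96, 27.5 ± 0.60 for miR-182 and 27.4 ± 0.44 for miR-183, with the reference RNAs at 22.1 ± 0.26. At PTD 15 miR-96 was later than that, at 27.0 ± 0.53 (SD, n = 5), as were the reference RNAs, while miR-182 was at 27.4 ± 0.12 and miR-183 at 27.1 ± 0.25. At PTD 30, the Ct of miR-96 was 24.6 to 26.2 and the reference RNAs were at 21.9 ± 0.25 (SD, n = 4).

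**Figure D2:**
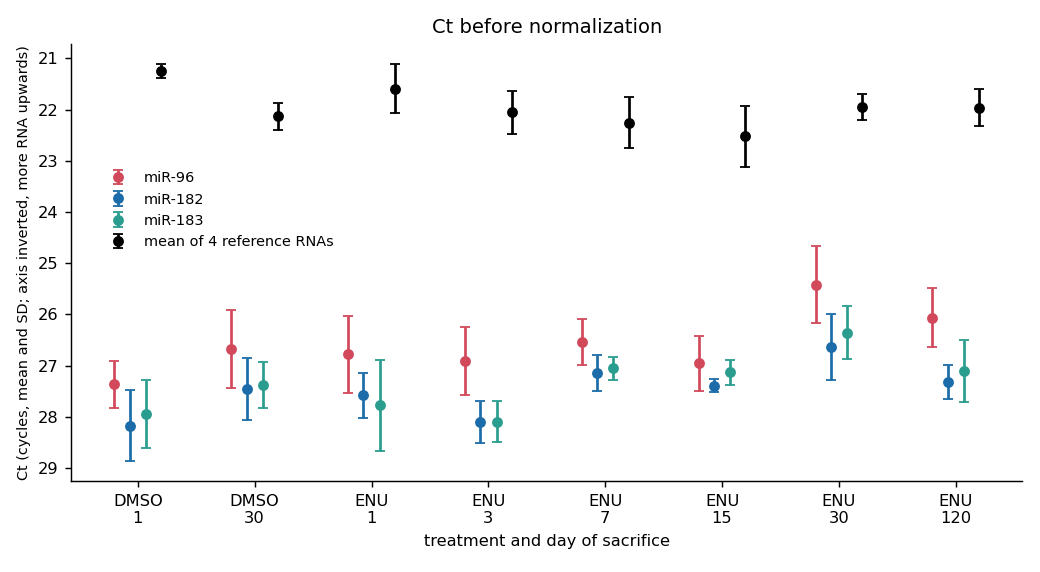
Mean Ct (cycles, axis inverted so that more RNA lies higher) with SD for miR-96, miR-182, miR-183 and the mean of the 4 reference RNAs in the 8 groups of 3 to 5 mice. The reference RNAs are earliest in the controls labelled day 1, at 21.2, and latest at PTD 15, at 22.5, while miR-96 is earliest at PTD 30, at 25.4.

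At PTDs 1 and 3 the members stood close to the pooled controls. At PTD 1 the -ΔCt of miR-96 was -4.95, -6.40, -5.62, -5.08 and -3.90, and that of miR-182 was -5.19, -6.86, -6.75, -5.76 and -5.38. At PTD 3 it was -4.90, -4.03, -5.53, -4.15 and -5.68 for miR-96, -6.60, -5.40, -6.58, -5.19 and -6.44 for miR-182, and -7.04, -5.45, -6.47, -5.15 and -6.10 for miR-183. At both days every member's values overlapped with the controls. The deposited values of replicate 3 of PTD 3 did not match the study's supplementary table for that mouse, and the deposited values were used. Without it, the log2 fold changes at PTD 3 were 0.53, 0.10 and -0.066 for miR-96, miR-182 and miR-183, and no member was called. The mean -ΔCt at PTD 1 was -5.19 ± 0.92 (SD, n = 5) for miR-96, -5.99 ± 0.77 for miR-182 and -6.19 ± 0.94 for miR-183, and at PTD 3 it was -4.86 ± 0.76, -6.04 ± 0.69 and -6.04 ± 0.77. No member was a DEM, beside 1.33% of all assays at PTD 1 and 2.13% at PTD 3. The log2 fold changes lay between -0.32 and 0.36, with standard errors of 0.50 to 0.54 and adjusted p of 0.848 or more. With the median Ct as the scale no member was called either, beside 0.798% of all assays at PTD 1 and 4.79% at PTD 3.

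At PTD 7 and PTD 15 every mouse was above the control mean for every member. At PTD 7 the -ΔCt of miR-96 was -4.66, -4.51, -4.10, -4.57 and -3.55, that of miR-182 was -5.14, -5.48, -4.58, -5.17 and -4.05, and that of miR-183 was -5.09, -5.47, -4.51, -4.77 and -4.14. At PTD 15 miR-96 was at -4.40, -4.41, -4.43, -4.57 and -4.34, miR-182 at -5.26, -5.15, -4.91, -5.21 and -3.80, and miR-183 at -4.77, -4.89, -4.94, -4.70 and -3.70. At PTD 15, replicate 5 stood above the other 4 mice in miR-182 and miR-183. All of these ranges overlapped with the 7 controls. The log2 fold change at PTD 7 was 0.94 ± 0.47 (SE) for miR-96, 1.13 ± 0.50 for miR-182 and 1.07 ± 0.46 for miR-183, with adjusted p of 0.237, 0.182 and 0.164 in limma. At PTD 15 it was 0.79 ± 0.45, 1.15 ± 0.51 and 1.27 ± 0.46, with adjusted p of 0.259, 0.152 and 0.0822. The exact permutation test gave p of 0.0896, 0.0669 and 0.0518 at PTD 7 and 0.121, 0.0644 and 0.0354 at PTD 15, in the order miR-96, miR-182 and miR-183.

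None of the 3 members was a DEM at PTD 7 or PTD 15, beside 9.84% and 11.4% of all assays, or 2.39% and 6.65% counting only assays that were higher. The median log2 fold change of all assays was 0.19 at PTD 7 and 0.36 at PTD 15. Without DMSO day 30 replicate 2 or 4, miR-183 met the rule at PTD 15, with log2 fold changes of 1.45 and 1.46. These are the 2 controls with the highest miR-182 and miR-183.

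When each array was scaled by its own median Ct, the members at PTD 7 met the rule, 3 of 3 beside 18.1% of all assays, with log2 fold changes of 1.24 ± 0.33 (SE) for miR-96, 1.43 ± 0.35 for miR-182 and 1.37 ± 0.29 for miR-183. At PTD 15, 2 of 3 met it beside 14.6% of all assays, miR-182 at 1.18 ± 0.36 and miR-183 at 1.30 ± 0.29, while miR-96 was at 0.82 ± 0.33. The adjusted p of these values was 0.0110, 0.00782 and 0.00405 at PTD 7 and 0.0775 for miR-96, 0.0351 for miR-182 and 0.00852 for miR-183 at PTD 15. The median log2 fold change of all assays under this scaling was 0.49 at PTD 7 and 0.39 at PTD 15.

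Within run period 1, where the controls are the 3 labelled day 1, all mice of PTDs 7 and 15 lay above all controls in each member. The log2 difference at PTD 7 was 1.84 ± 0.35 (SE) for miR-96, 2.04 ± 0.43 for miR-182 and 1.90 ± 0.42 for miR-183, and at PTD 15 it was 1.69 ± 0.27, 2.06 ± 0.45 and 2.09 ± 0.42. For each of these 6 values the exact permutation p was 0.0179, the smallest that 5 mice against 3 allow. All 3 members met the rule at both days, beside 33% of all assays at PTD 7 and 40.4% at PTD 15, and the median log2 difference of all assays was 0.84 and 1.05. With run period as a term in 1 fit of all samples, 3 of 3 were again called at both days, beside 30.3% and 36.2% of all assays. At PTD 3, the same controls were also below every mouse in miR-96, with a log2 difference of 1.26 ± 0.48 and an exact permutation p of 0.0357, and no member was a DEM, beside 7.98% of all assays. At PTD 1, the 4 mice of this period differed from these controls by 0.91, 0.88 and 0.69, and no member was called, beside 1.06% of all assays. Against the 4 controls labelled day 30, which were run in the other 2 periods, the log2 differences were 0.27, 0.44 and 0.46 at PTD 7 and 0.11, 0.46 and 0.65 at PTD 15, and no member met the rule, beside 10.1% and 9.04% of all assays. So the size of the difference at PTDs 7 and 15 turned on which controls were used, whose day label, run period and reference RNAs moved together.

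At PTD 120, the -ΔCt of miR-96 was -4.56, -4.22, -3.89 and -3.74, and the mean was -5.35 ± 0.29 (SD, n = 4) for miR-182 and -5.15 ± 0.39 for miR-183. All of these mice were above the mean of the controls and none was above the highest control. The log2 fold changes were 1.12 ± 0.51 (SE), 0.66 ± 0.53 and 0.72 ± 0.49 for miR-96, miR-182 and miR-183, with adjusted p of 0.446, 0.577 and 0.505 in limma and a median over all assays of 0.46. None was a DEM, beside 1.33% of all assays, although miR-96 met the rule without DMSO day 30 replicate 2, at 1.38. From the 2 controls run in period 2 the differences were 0.13, 0.15 and 0.19.

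**Figure D3:**
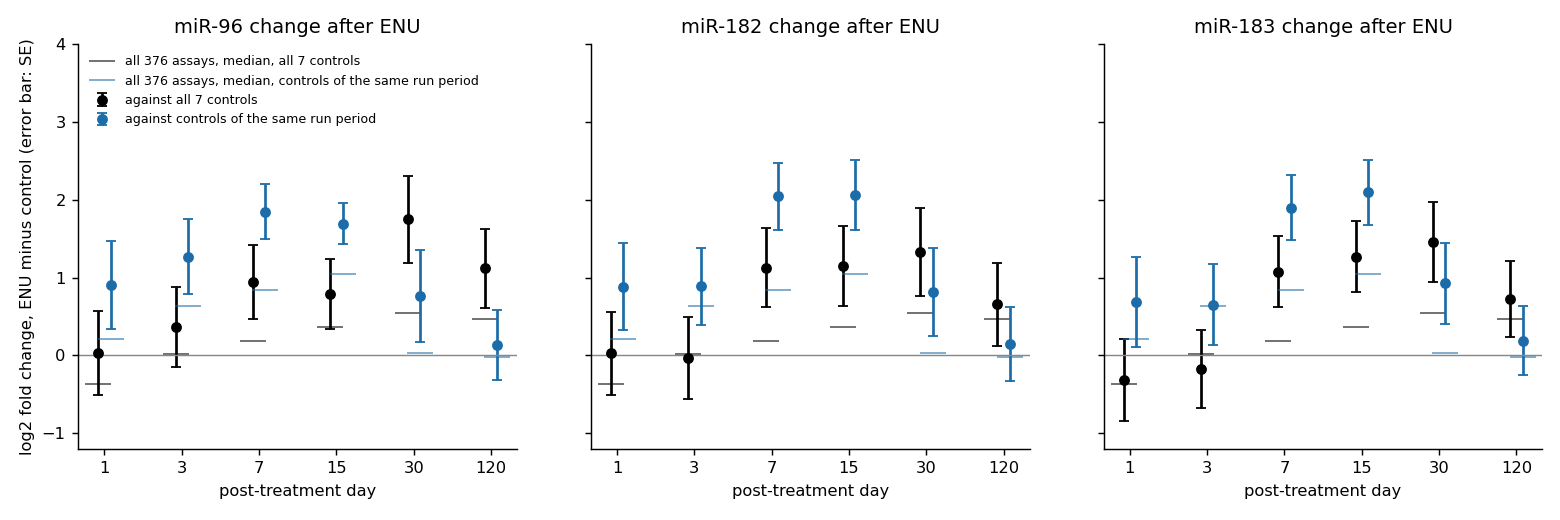
Log2 fold change (ENU minus control, points with SE) of each member by PTD, with all 7 controls (black) or only those of its own run period (blue) as the comparison, with the median of the 376 assays in the same comparison as a short dash. At PTDs 7 and 15 the blue points lie between 1.69 and 2.09 and the black points between 0.79 and 1.27, and at PTDs 30 and 120 the order is the reverse.

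In order of their mean -ΔCt against the reference RNAs, PTD 30, whose values chose the cluster, stood highest for each member. For miR-182 and miR-183 it was followed by PTD 15, PTD 7 and PTD 120, and for miR-96 by PTD 120, PTD 7 and PTD 15. The control group, PTD 1 and PTD 3 were the lowest for every member. The ranges of each group and the next in this order overlapped for all 3 miRNAs. The order depended on the scale. With the median Ct, the log2 fold changes at PTD 30 were 1.34, 0.92 and 1.05 for miR-96, miR-182 and miR-183. Those at PTDs 7 and 15 were larger for miR-182 (1.43 and 1.18) and miR-183 (1.37 and 1.30), but not for miR-96 (1.24 and 0.82).

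A comparison among ENU mice needs no control. At PTD 1, the -ΔCt of miR-183 was -5.31, -7.22, -6.36, -6.91 and -5.14, so that 4 of the 5 mice of PTD 7 and all 5 of PTD 15 lay above every mouse of PTD 1. The log2 difference of miR-183 was 1.39 ± 0.46 (SE, adjusted p = 0.0541 in limma, exact permutation p = 0.0317) at PTD 7 and 1.59 ± 0.47 (adjusted p = 0.0342, exact permutation p = 0.0079, the smallest that 5 mice against 5 allow) at PTD 15. It met the rule for DEMs in both comparisons, which share the mice of PTD 1, beside 16.8% and 23.9% of all assays, or 10.6% and 19.4% counting only those that were higher. With the median Ct, miR-182 and miR-183 were called at PTD 7, beside 25% of all assays. The differences of miR-182 were 1.10 ± 0.44 and 1.12 ± 0.45, and those of miR-96 were 0.91 ± 0.45 and 0.76 ± 0.43, below the rule. The median over all assays was 0.66 at PTD 7 and 0.81 at PTD 15, and the reference RNAs at PTD 1 were at 21.6 ± 0.48 (SD, n = 5), earlier than at PTDs 7 and 15. Some cell-type markers were called in the same comparisons, which called 16.8% of all assays at PTD 7 and 23.9% at PTD 15. Of the leukocyte markers 2 of 6 were called at PTD 7, miR-146a at 1.40 ± 0.44 (SE, adjusted p = 0.0481 in limma) and miR-150 at 1.89 ± 0.36 (adjusted p = 0.00289). At PTD 15 it was 2 of 6, miR-150 at 1.96 ± 0.38 (adjusted p = 0.00736) and miR-155 at 1.56 ± 0.49 (adjusted p = 0.0356), with 1 of 4 hepatocyte markers, miR-148a, and 1 of 5 endothelial and stromal markers, miR-126-3p. The leukocyte marker miR-142-5p went the other way, at -0.65 ± 0.47 (SE) at PTD 7 and -0.44 ± 0.48 at PTD 15. The log2 differences of miR-142-3p were 0.52 and 0.63 and those of miR-223 were 1.01 and 1.28, without a call. The mean level of the leukocyte markers ranged from -4.44 to -2.77 at PTD 1, from -3.16 to -2.17 at PTD 7 and from -2.998 to -1.906 at PTD 15. No erythroid, biliary or epithelial marker was called. The part of these cells in the difference of miR-183 was not tested. Within run period 1, with 4 mice of PTD 1, no member met the rule, beside 21.5% and 26.6% of all assays, and miR-183 was at 1.21 ± 0.48 (SE) and 1.41 ± 0.49. At PTD 7 the call of miR-183 was lost without ENU day 1 replicate 2, 3 or 4 or ENU day 7 replicate 1, 3, 4 or 5, at 1.13 to 1.47, and at PTD 15 without ENU day 1 replicate 2, 3 or 4 or ENU day 15 replicate 5, at 1.33 to 1.54.

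Among mice of the same group, the members varied together. For each of the 35 mice, the -ΔCt was set against the mean of its group (8 groups by label). Pearson's r of these deviations was 0.87 between miR-182 and miR-183 (Spearman's rho 0.82), 0.80 between miR-96 and miR-182 (rho 0.82) and 0.74 between miR-96 and miR-183 (rho 0.71). The permutation p was 1e-05, 1e-05 and 7e-05 for r and 2e-05, 1e-05 and 0.00021 for rho, where 1e-05 is the smallest that 100000 permutations within groups can give. Adjusted over the 6 relations computed, p was 3e-05, 3e-05 and 0.00014 for r and 6e-05, 6e-05 and 0.00042 for rho. Without the 2 mice farthest from the median of the first named miRNA, r was 0.84, 0.79 and 0.67. Taking deviations within group and run period, r was 0.93, 0.79 and 0.76 over the 22 arrays of period 1 and 0.85, 0.93 and 0.89 over 10 arrays of period 2, whose single array of PTD 1 has no deviation of its own and was left out, and period 3 held only 2 arrays.

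The deviations on an array share its reference RNAs, so other assays are correlated with the members as well. Over the 375 other assays the median r was 0.35 with miR-96, 0.38 with miR-182 and 0.42 with miR-183. From the highest r, miR-183 ranked 1 for miR-182, whereas miR-182 ranked 4 for miR-183 and 5 for miR-96. For miR-96 the other member, miR-183, ranked 16, and miR-96 itself ranked 12 for miR-182 and 43 for miR-183. With the median Ct as the scale, the median r fell to between 0.12 and 0.17, and the members were at r of 0.76, 0.69 and 0.56 in the order above (permutation p adjusted over 6 relations of 0.0003, 0.00171 and 0.0129). The assays most like each member were miR-301b, miR-101b and miR-362-3p for miR-96 (r of 0.85, 0.84 and 0.82), miR-183, miR-125b-5p and miR-99a for miR-182 (0.87, 0.85 and 0.84), and miR-15b, miR-191 and miR-125b-5p for miR-183 (0.89, 0.87 and 0.87), each over 35 mice.

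Each array also holds 2 reverse transcription control wells, which contain no miRNA assay. The deviations of the difference between their Ct values had an r of -0.13 with miR-96, 0.25 with miR-182 and 0.16 with miR-183 (rho -0.11, 0.27 and 0.12), with adjusted permutation p of 0.568, 0.373 and 0.493 for r and 0.617, 0.282 and 0.617 for rho. Without the 2 arrays farthest from the median, r was -0.20, 0.10 and -0.03. This difference was above 0 in 4 of 5 arrays at PTD 7 and 3 of 5 at PTD 15, 3 of 5 at PTD 3 and 2 of 4 in the controls labelled day 30, and on no array of the controls labelled day 1 or of PTDs 1, 30 and 120.

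**Figure D4:**
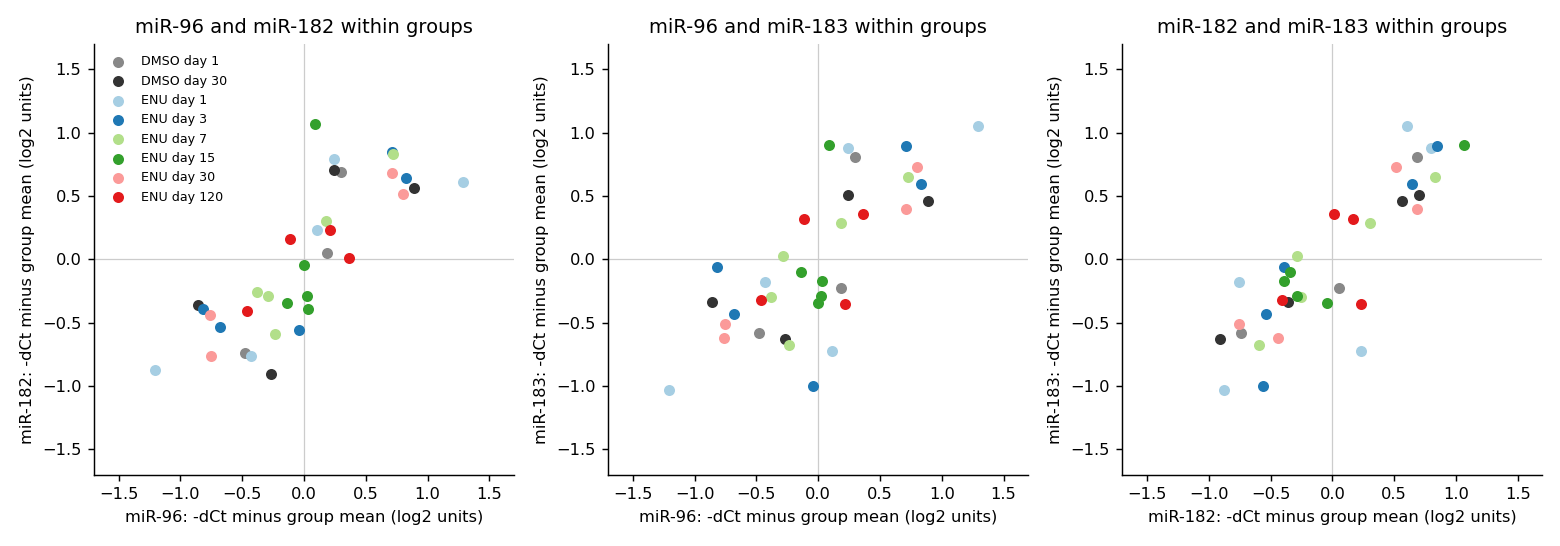
Deviation of -ΔCt from the mean of its group (log2 units) for each pair of members, 1 point per mouse (n = 35), coloured by group. The points follow the diagonal with r of 0.80, 0.74 and 0.87 from left to right.

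The difference between 2 members on the same array does not involve the reference RNAs. The Ct of miR-96 minus that of miR-182 was -0.87 ± 0.47 (SD, n = 35) and was below 0 on 34 arrays. The Ct of miR-96 minus that of miR-183 was -0.77 ± 0.53, again below 0 on 34 arrays. In both cases the exception was replicate 5 of PTD 15, at 0.55 and 0.64. For miR-182 minus miR-183 the difference was 0.11 ± 0.34, and it ranged from -1.16 to 0.56. The lowest value belonged to replicate 4 of PTD 1, the only mouse of that day run in period 2. The SD of these differences stood at the 4.42, 6.85 and 1.43 percentile of the 64980 pairs of the 361 assays with a value on every array, so that miR-182 and miR-183 were among the pairs with the steadiest difference. The pairs were not matched for their Ct. The members are among the 205 of 376 assays with a mean Ct of at most 30.

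By treatment, no difference between members passed its test. On the log2 scale, the distance of miR-96 above miR-182 was 0.79 in the controls then 0.80 at PTD 1 and 1.19 at PTD 3, with 0.61, 0.44, 1.22 and 1.25 at PTDs 7, 15, 30 and 120. The distance of miR-96 above miR-183 was 0.65 in the controls and 1.00, 1.19, 0.52, 0.17, 0.94 and 1.04 at the same days, so the largest was at PTD 3. Over the 15 comparisons of a pair with the controls that leave out PTD 30, the smallest adjusted p of the exact permutation tests was 0.461, so no unequal change of the 3 members was detectable with these numbers of mice.

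Among miRNAs known from the same epithelial and sensory tissues, 6 of the 9 listed were on the array, and none was a DEM at PTDs 1, 3, 7, 15 or 30, beside 1.33%, 2.13%, 9.84%, 11.4% and 1.6% of all assays. Their median log2 fold change at PTDs 7, 15 and 30 was -0.42, 0.05 and 0.70, beside 0.19, 0.36 and 0.54 for all assays. At PTD 7 the values farthest from 0 were those of miR-205, a miRNA of stratified epithelia, at -1.16 ± 0.45 (SE, adjusted p = 0.130 in limma), and miR-200a, a member of the miR-200 family of epithelial cells, at -0.60 ± 0.45 (adjusted p = 0.417). At PTD 120, miR-211 was the 1 DEM of this list, at 1.62 ± 0.49 (adjusted p = 0.446), beside 1.33% of all assays. In the controls, miR-203 and miR-205 were higher at day 30 than at day 1 by the rule, at 1.80 ± 0.32 and 1.41 ± 0.31 (adjusted p = 0.00782 and 0.0129), beside 28.5% of all assays. The 4 other miRNAs listed as known repressors of Foxo1, miR-27a, miR-27b, miR-223 and miR-370, gave no DEM at any PTD against the controls, beside the same shares, while miR-27a, miR-27b and miR-223 were higher at day 30 than at day 1 in the controls, again beside 28.5% of all assays. Their log2 fold changes at PTD 15 were 0.33 ± 0.35, 0.38 ± 0.34, 0.45 ± 0.43 and -0.18 ± 0.43.

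The cell types of liver were followed by lists of marker miRNAs. Of 4 hepatocyte markers, 6 leukocyte markers, 5 endothelial and stromal markers and 4 biliary and epithelial markers on the array, none was a DEM at PTD 7, 15 or 30, beside 9.84%, 11.4% and 1.6% of all assays. Of the leukocyte markers 2 were lower at PTD 1 and 1 was higher at PTD 120, beside 1.33% of all assays at each of these days. Both erythroid markers were DEMs at PTD 15, beside 11.4% of all assays, with a median log2 fold change of 1.28. Between the controls of day 30 and day 1, where 28.5% of all assays were called, all higher, and the median was 1.00, 4 of 4 hepatocyte, 3 of 6 leukocyte, 3 of 5 endothelial and stromal, 0 of 4 biliary and epithelial and 0 of 2 erythroid markers were higher by the rule. The mean level of the biliary and epithelial markers ranged over the mice from -5.34 to -3.19 in the controls labelled day 1, from -4.22 to -3.76 in those labelled day 30, from -4.82 to -3.47 at PTD 7 and from -4.18 to -3.32 at PTD 15. That of the erythroid markers ranged from -2.26 to -1.15 in the controls and from -1.04 to -0.09 at PTD 15. Their part in the values of the members was not tested.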

How the data were processed

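Small RNA of each liver, from separate mice, was reverse transcribed and measured on a 384-well SYBR Green real-time PCR array. The authors deposited, per the labels, the Ct of every well, calculated in SDS 2.3 with a threshold of 0.15 and without normalization, a cycle number on a log2 scale. Wells were named by the layout in the study's supplement, which fitted 34 of 35 arrays to within 0.01 cycles, the exception being replicate 3 of PTD 3. Wells without a Ct (15 on 11 arrays, none of a member) were treated as missing.

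-ΔCt was computed against the 4 reference RNAs, the normalization named in the methods of the study, with no filter. Each ENU group was compared with the 7 controls in limma (version 3.58.1, R version 4.3.3), two-sided, 1 fit per comparison over all 376 assays and no covariate. DEMs were called as in the study, at an unadjusted p under 0.01 with more than 2-fold change, with limma for its t-test. Adjusted p values are Benjamini-Hochberg over all assays. Single values were also tested with two-sided exact permutation tests, and correlations with 100000 permutations within groups (Python version 3.11.15, scipy version 1.17.1, numpy version 2.4.6, pandas version 2.3.3, matplotlib version 3.10.9). The fit was tested on simulated data. The members, lists and tests were chosen with earlier results of these data known. Named miRNAs are the members, the 3 assays most like each by within-group r, miRNA genes within 2 Mb, and for a list the 2 farthest from 0. Outside this, called cell-type markers, miR-211, miR-203, the Foxo1 list and miR-122 were named after their values were seen. Alternatives are named in the closing section. The covariate, the term for run period and the array differences without controls were added after the data were examined. PCR arrays have no read depth, and how many arrays a group held sets the precision.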

Additional observations from a re-analysis of the deposited data

Results flagged for a closer look

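At PTD 15, replicate 5 stood apart from the other 4 mice in miR-182, at a -ΔCt of -3.80 against -5.26 to -4.91, and in miR-183, at -3.70 against -4.94 to -4.70. It was not apart in miR-96. Its reference RNAs had the latest mean Ct of all arrays, 23.5. Both values passed Dixon's test, which was applied to 24 sets of 4, 5 or 7 mice and marks about 1 in 20 by chance.

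In miR-183, the change from control to PTD 7 and that from control to PTD 15 were each larger than the change to PTD 1, by 1.39 and 1.59 on the log2 scale in direct limma contrasts. Within run period 1 the differences were 1.21 and 1.41 and did not meet the DEM rule, beside 21.5% and 26.6% of all assays called.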

How the results depend on the processing

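Of 318 recalculated log2 fold changes of the members at days other than PTD 30 (single mice left out not counted), 257 kept their direction and side of the DEM rule, 31 newly met it, 8 no longer met it and 22 changed sign, and 47 of 51 at PTD 30 stayed within 1 SD. Not all of these are separate recalculations. The t-test, the adjusted p, the Ct limit of 35, wells set to 40, the filter on mean Ct and 1 fit of all samples left the log2 fold change itself unchanged. At PTDs 3, 7 and 15 the controls labelled day 1 are also those of the run period, so the same values are counted under both settings. The cause was not tested for any of the changes, and the number of arrays limits each.
The number of members called at PTD 7 went from 0 to 3 with the median Ct, with only the controls labelled day 1, within the run period and with run period as a term. At PTD 15 it went from 0 to 2, 3, 3 and 3 in that order, to 1 without snoRNA251 (16.2% of all assays called) and to 1 in 1 fit of all samples (13.3%). At both days the controls labelled day 1 and those of the run period are the same 3 mice, so these settings are 1 comparison. The fit with run period as a term holds these mice too. At PTD 30 the number of members called went from 1 to 2 without snoRNA251, without U6 and over assays with a mean Ct of at most 30 (1.86%, 1.86% and 1.95% called). It went to 3 with only the controls labelled day 1 (37.5% of all assays called), in 1 fit of all samples (1.86%) and with the reverse transcription control covariate (3.46%). It went to 0 without snoRNA142 (1.06%), with only the controls labelled day 30 (1.33%), within the run period (0.798%), with the t-test (1.06%), with adjusted p under 0.05 (0.532%), and with run period as a term (1.33%). At PTD 120 it was 3 with only the controls labelled day 1, beside 27.9% of all assays, each of them higher. For PTD 7 against PTD 1 it went from 1 to 2 with the median Ct and to 0 without snoRNA251, without snoRNA202 and within the run period (25%, then 17.3%, 12.8% and 21.5% of all assays called), and for PTD 15 against PTD 1 to 0 without snoRNA202 and within the run period (12.8% and 26.6%). For the DMSO labels it went from 1 to 0 with the median Ct, without snoRNA251 and without snoRNA202 (5.05%, 23.7% and 31.1% of all assays called), and to 2 without U6 (25.3%).
A Ct above 35 set to 35, or wells without a Ct set to 40, could not alter the value of a member. Every member had a Ct on every array, at most 29.0. The number of members called against the controls changed under neither setting. Between the DMSO labels it did not change without the controls of period 3. With single mice left out, the number called was 0 to 1 at PTD 15, PTD 120 and for both comparisons with PTD 1, 0 to 2 at PTD 30 and between the DMSO labels, and 0 throughout at PTDs 1, 3 and 7. The log2 fold change then ranged at PTD 1 from -0.29 to 0.33 for miR-96 and from -0.25 to 0.26 for miR-182, and at PTD 3 from -0.31 to 0.20 for miR-182 and from -0.41 to 0.077 for miR-183.
Same-numbered mice are different animals, and the replicate block moved the number called at PTD 30 to 0 (1.6% of all assays called) and between the DMSO labels to 2 (24.7%). The correlation of same-numbered mice with the controls ran from -0.19 to 0.52 over the PTDs. With this block, the log2 fold change at PTD 1 was -0.38 for miR-96 and -0.25 for miR-182.
Signs near 0 also turned at PTD 1 without snoRNA142 (-0.11 for miR-96 and -0.11 for miR-182), with the day 30 controls (-0.65 and -0.66), and for miR-183 with the median Ct (0.053), the day 1 controls (0.51), the run period (0.69) and its term (0.053). At PTD 3, miR-182 turned with the median Ct (0.27), without snoRNA202 (0.14), without U6 (0.0070), with the day 1 controls and the run period (0.88) and its term (0.70), miR-183 with the median Ct (0.12), the day 1 controls and the run period (0.65) and its term (0.29), and miR-96 with the day 30 controls (-0.31). At PTD 120, miR-182 was at -0.028 with the day 30 controls.
The 3 correlations between members kept their sign and an adjusted p under 0.05 in all alternatives run. For the reverse transcription control difference, r with the median Ct was 0.014 for miR-96 and 0.49 for miR-182 (adjusted permutation p = 0.0342), and -0.028 for miR-183 without the 2 farthest arrays.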

Other observations

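Other miRNA genes lie within 2 Mb of the cluster on chromosome 6 and have 6 assays on the array. They are Mir129-1, Mir335, Mir29a and Mir29b-1. Mir335, an intronic miRNA of the imprinted gene Mest, lies 572 kb away and Mir29a 893 kb away. The assay of miR-335-5p was higher than in the 7 controls at PTD 7, with a log2 fold change of 1.06 ± 0.30 (SE, adjusted p = 0.0482 in limma), and at PTD 15, at 1.49 ± 0.23 (adjusted p = 0.00118). It was a DEM on both days, beside 9.84% and 11.4% of all assays. Its partner from the other arm, miR-335-3p, was at 0.54 ± 0.33 and 0.83 ± 0.30 (adjusted p = 0.327 and 0.0800). By the same test, miR-129-3p was lower at PTD 7, at -1.63 ± 0.48 (adjusted p = 0.0533), and was at 3.38 ± 2.78 at PTD 15 (adjusted p = 0.441). The assays of miR-129 and miR-29b can also measure a copy at another locus. The other 3 assays of these genes, miR-129-5p, miR-29a and miR-29b, were not DEMs at PTD 7 or PTD 15.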
